A study of Cavia porcellus with 35 samples.

Results

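Medium spiny neurons are the projection neurons of the striatum, and 39 gene symbols that mark them were followed through RNA-seq of medial prefrontal cortex (mPFC) from 35 guinea pigs (Cavia porcellus). The list was matched to the gene symbols of 4 deposited count tables ignoring case, and 35 of the 39 symbols were listed in at least 1 table, out of 12097 distinct symbols over the tables. GNG7, STRIP2, ZNF503 and EXPH5 had been placed on the list because of their change in F1 animals, so their F1 values are given as a description without a test. All animals were sampled at postnatal day 40. The sGC animals, labelled Beta, belonged to lineages in which pregnant females had received several courses of betamethasone, a synthetic glucocorticoid, in late gestation, and the control lineages had received saline. F1 animals were exposed before birth, and F2 and F3 animals descended from exposed lineages through the fathers, which had been mated with females from outside the experiment. Females were measured in each generation, with 4 control and 4 sGC animals per generation, and males in the F1 generation only, with 5 control and 6 sGC animals. Each library came from 1 animal, and the animals had been chosen by the amount and quality of their RNA.

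A striatal medium spiny neuron uses GABA and reads dopamine through a cyclic AMP cascade. Dopamine D1 receptors on direct-pathway neurons, and the adenosine receptor ADORA2A on indirect-pathway neurons, raise cyclic AMP through the olfactory-type G protein and adenylyl cyclase type 5, phosphodiesterases remove it, and the phosphoprotein DARPP-32 (PPP1R1B) passes the signal on by blocking protein phosphatase 1. The cortex holds some of these transcripts too, for example DARPP-32 in deep-layer neurons, whereas ADORA2A is known as a gene of the indirect-pathway neurons of the striatum. The striatum lies close to the medial prefrontal cortex in the rodent forebrain, and in an RNA-seq library of a tissue punch fewer cells of a type and less RNA per cell cannot be told apart.

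The source label names the prefrontal cortex and the study's methods describe punches of the right mPFC, whereas the extraction protocol in the labels speaks of a punch of the paraventricular nucleus. The defining paraventricular genes were low in every group: mean levels were at most 1.17 CPM for AVP (vasopressin), 3.63 CPM for OXT (oxytocin) and 1.49 CPM for CRH, where listed, while the mean level of SIM1 lay between 4.24 and 12.8 CPM, and OTP and TRH were not listed. SLC17A7, the vesicular glutamate transporter of cortical excitatory neurons, lay between 171 and 3575 CPM in the F1 females. CPM are read counts scaled to a common library size, here by TMM within a table. Libraries held 12819964 to 19551079 assigned reads in females and 25697953 to 31763585 in males, and the tables were counted separately, so levels in different tables are set side by side without a test.

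The list was not fully covered in any table. ISL1 and DLX6, transcription factors of striatal development, GPR6, a receptor of indirect-pathway neurons, and TMEM158 were listed in none. In F1 females 34 members were tested, and only LRRC10B was missing beside those 4. In F2 females 31 were tested, with ADORA2A, SIX3, SLC35D3 and LRRC10B also not listed. In F3 females 33 were tested, RASGRP2 was not listed, and LRRC10B, with 2 to 20 reads per library, did not pass the filter on low counts. In F1 males 32 were tested and SIX3, FOXP1 and SLC35D3 were not listed. Altogether 29 members were tested in all 4 tables.

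The 2 defining genes differed most between animals in F1 females. PPP1R1B, or DARPP-32, measured 1280, 242, 424 and 1177 CPM in F1 female controls 1 to 4 and 89.6, 81.8, 175 and 289 CPM in sGC females 1 to 4. Controls 1 and 4 stood far above the rest, and the groups overlapped because sGC female 4 exceeded control 2. The log2 fold change, sGC against control, was -2.30 ± 0.60 (SE; edgeR quasi-likelihood test, FDR = 0.0339). ADORA2A, the adenosine receptor of indirect-pathway neurons, measured 349, 39.7, 63.0 and 356 CPM in the same controls and 6.25, 5.99, 10.5 and 64.2 CPM in the same sGC females. Again controls 1 and 4 were the highest of the 8 animals and sGC female 4 the highest of its group, and the log2 fold change of -3.22 ± 0.99 did not pass the threshold (FDR = 0.0566), although it did in the likelihood ratio test (FDR = 0.00853) and in DESeq2 (FDR = 0.0154). When single animals were left out, PPP1R1B passed in 2 of 8 fits (FDR 0.0215 without control 2 to 0.0920 without sGC female 1), as did ADORA2A (FDR 0.0261 without sGC female 4 to 0.131 without sGC female 1).

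In the F2 females PPP1R1B was nearly level. It measured 83.3, 89.5, 73.0 and 74.1 CPM in the controls and 76.1, 64.5, 91.0 and 88.6 CPM in sGC animals, with a log2 fold change of 0.00 ± 0.11 (FDR = 0.998). The groups overlapped over nearly their whole range. In F3 females PPP1R1B measured 124, 292, 424 and 220 CPM in the controls and 99.2, 195, 83.9 and 159 CPM in sGC animals. Control 3 was the highest and control 1 fell among the sGC animals, and the log2 fold change was -0.98 ± 0.37 (FDR = 0.213). F3 ADORA2A measured 8.29, 39.6, 77.6 and 20.2 CPM in the controls and 12.1, 41.9, 9.76 and 22.02 CPM in sGC animals, so that the lowest of the 8 values came from a control, and its log2 fold change was -0.74 ± 0.64 (FDR = 0.606). In F1 males both genes were low. Male PPP1R1B ranged from 18.3 to 24.5 CPM in 5 controls (mean 21.5) and had a lowest, median and highest value of 20.7, 23.4 and 28.3 CPM in 6 sGC males (log2 fold change 0.15 ± 0.09, FDR = 0.337). Male ADORA2A ranged from 3.21 to 4.35 CPM in the controls and from 2.83 to 4.64 CPM in sGC animals, with a log2 fold change of 0.01 ± 0.14 (FDR = 0.978).

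**Figure D1:**
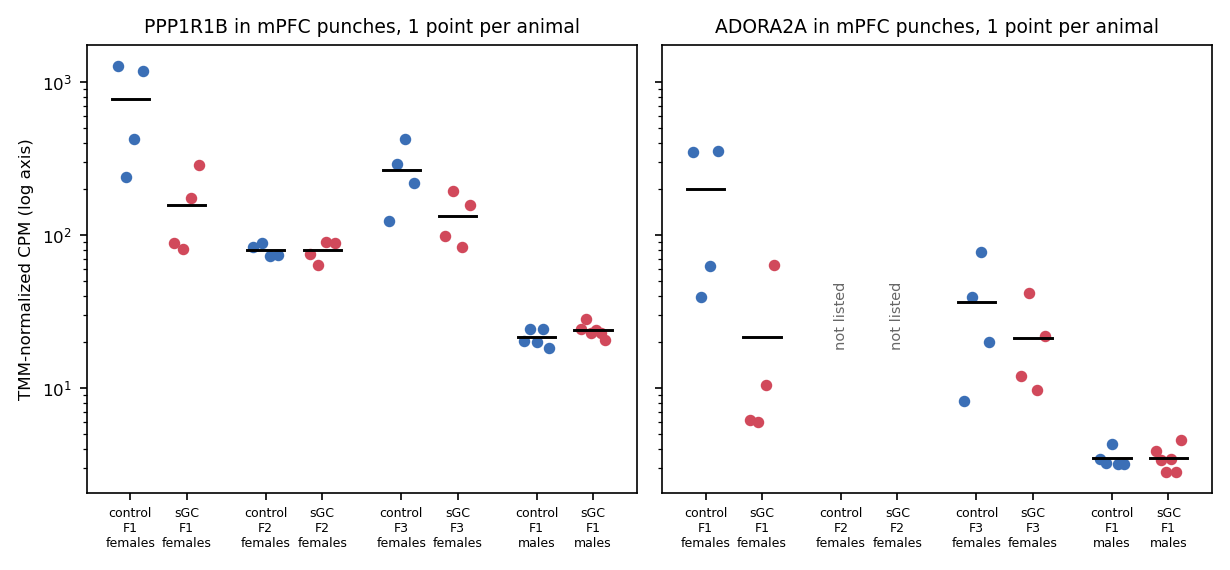
TMM-normalized CPM (log axis) of PPP1R1B and ADORA2A, 1 point per animal, with control animals in blue, sGC animals in red and the group mean as a black line. PPP1R1B spans 81.8 to 1280 CPM among F1 females but 64.5 to 91.0 CPM among F2 females, and ADORA2A, which is not listed in F2 females, is at or below 4.64 CPM in all F1 males.

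Across animals the 2 genes moved together in the tables where they varied. Over the 8 F1 females the log2 CPM of PPP1R1B and ADORA2A gave a Pearson r of 0.98 (exact two-sided permutation p = 0.000149) and a Spearman rho of 0.95 (exact permutation p = 0.00114). Without controls 1 and 4, the 2 animals farthest from the median, r was 0.95 over 6 animals. Over the 8 F3 females r was 0.91 (exact permutation p = 0.00241) and rho was 0.81 (exact permutation p = 0.0218), and r was 0.81 without control 3 and sGC female 3. In the 11 F1 males, in which both genes were low, r was -0.22 (permutation p = 0.506) and rho -0.03 (permutation p = 0.948). These were 3 relations. Their Benjamini-Hochberg adjusted permutation values were 0.000446, 0.00361 and 0.506 for r and 0.00342, 0.0327 and 0.948 for rho. Control and sGC animals were permuted together. The permutation values therefore do not separate covariation within groups from a group difference shared by both genes. The list had also been proposed with covariation in view.

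**Figure D2:**
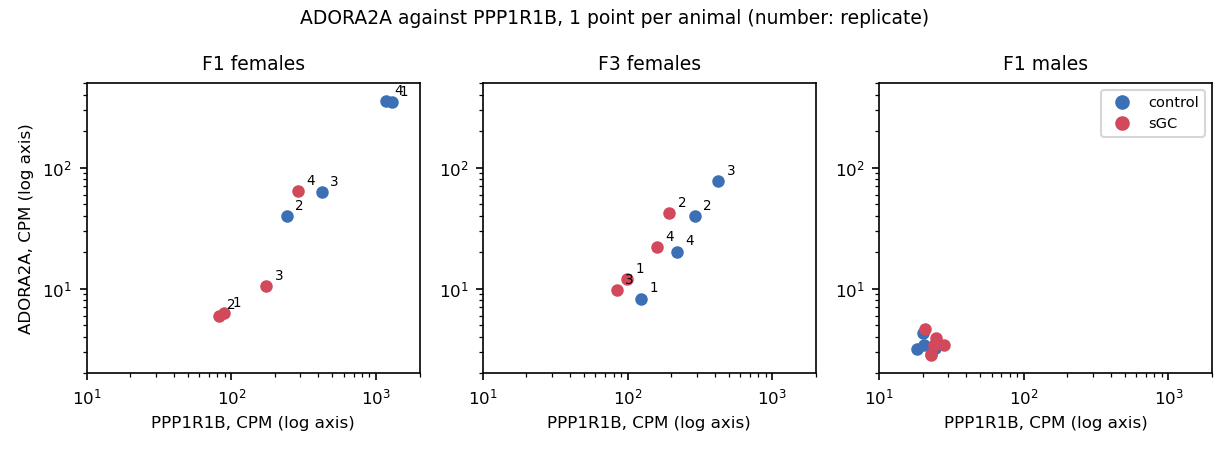
ADORA2A against PPP1R1B in CPM (both axes log), 1 point per animal, controls in blue and sGC animals in red, with the replicate number beside each female. F1 and F3 females lie along a rising line, from sGC females 1 and 2 to controls 1 and 4 in F1 (r = 0.98), and the F1 males lie in 1 cloud at low levels (r = -0.22).

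Most other members followed PPP1R1B in the same tables. In F1 females the median r with PPP1R1B over the 8 animals was 0.89 for 29 members, the 4 listed for their F1 change left out, against 0.04 over all genes, and 19 members exceeded 0.8, against 4.63% of all genes. SYNDIG1L (0.98), SLC35D3 (0.98), PDE10A (0.98) and DLX5 (0.97) came next after ADORA2A, and RXRG (0.20) and INF2 (0.01) were lowest. In F3 females the median was 0.88 over 32 members against 0.00, and 22 exceeded 0.8, against 3.50% of all genes, led by RARB (0.99) and PDE10A (0.98), with INF2 (-0.28) and SH3RF2 (-0.24) lowest. In F2 females the median r was 0.27 over 30 members, against -0.01 over all genes, and 0 members exceeded 0.8, against 2.08% of all genes. In F1 males the median was 0.08 over 27 members, against 0.00, and 0 exceeded 0.8, against 0.295% of all genes. All of these values share libraries and normalization within a table and are given without a test.

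The spread between animals followed the same division. For each member the highest animal was divided by the lowest, and the median of that ratio was 3.57 in F1 females and 1.66 in F1 males, without the 4 genes listed for their F1 change, and 2.59 in F3 and 1.62 in F2 females. The same ratio was not computed over all genes, so how far all genes spread in each table is not known from it. In F1 females 6 of those 30 members spanned more than 10-fold, led by SLC35D3 (239-fold, from 0.138 to 32.99 CPM) and SIX3 (207-fold), while INF2 spanned 1.23-fold. The lowest libraries held only 2 reads of SLC35D3 and 3 of SIX3, so these 2 ratios rest on few reads. Of the 30 members not listed for their F1 change, controls 1 and 4 held the highest value of 26 between them, 19 in control 1 and 7 in control 4, whereas 15.6% and 9.90% of all genes were highest there. In F3 females control 3 held the highest value of 29 of 33 members, against 14.0% of all genes, and sGC female 3 held the lowest of 21.

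**Figure D3:**
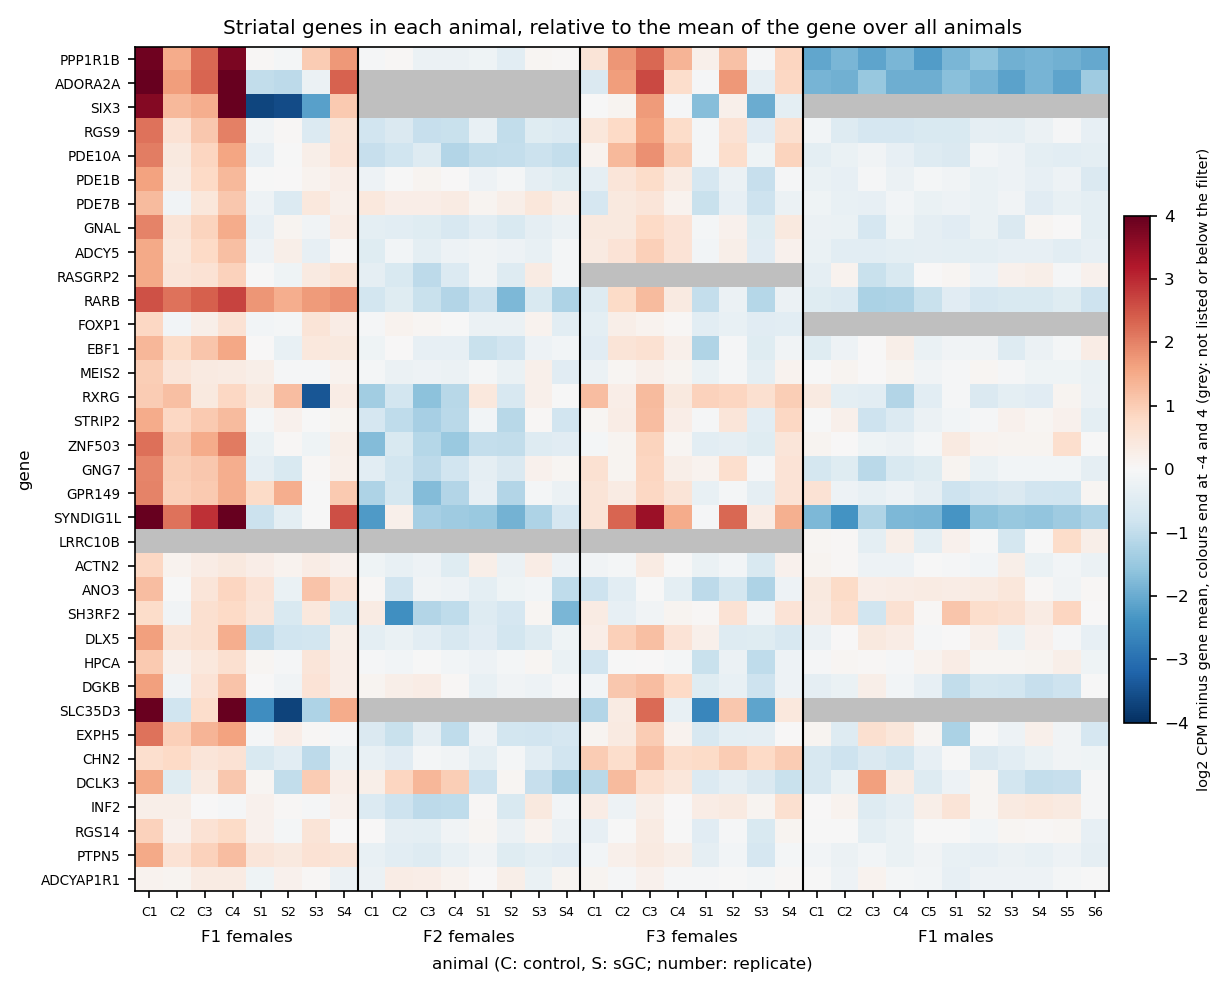
Log2 CPM of each member in each of the 35 animals, minus the mean of that gene over all animals (red above, blue below, grey not listed or below the filter, colours ending at -4 and 4), with columns grouped by table and marked C for control and S for sGC. The red columns are F1 controls 1 and 4 and, less strongly, F3 control 3, and the F2 females and F1 males show little difference between columns.

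The F1 female comparison asked whether prenatal sGC exposure changed these genes in directly exposed daughters. Of 30 members counted, 14 fell in sGC females and 0 rose in edgeR's quasi-likelihood test, where a call required an FDR under 0.05. Of all 11268 tested genes 7.33% fell and 9.21% rose. All 30 had negative log2 fold changes, with a median of -0.75, against -0.03 and 54.5% negative over all genes. For 11 of the 30 every sGC animal lay below every control, an arrangement found in 11.2% of all genes in that direction. The count depended on single animals: it was 3 without sGC female 1, 5 without sGC female 3, 5 without control 4, 8 without control 3, 8 without sGC female 2, 9 without control 1, 11 without sGC female 4 and 17 without control 2. Over all genes the share called either way went from 16.5% to 7.32%, 10.8%, 8.77%, 5.42%, 14.2%, 18.7%, 9.81% and 10.8% in the same order. It did not always follow the count: without control 1 the count fell and the share rose, and without control 2 the reverse held. With controls 1 and 4 both left out, an alternative chosen after seeing the data, 4 members fell, namely CHN2, RARB, ADCY5 and GNAL, against 15.1% of all genes called, and the median log2 fold change of the members was -0.33.

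Among 6 transcripts that make, remove or gate cyclic AMP, 5 fell in F1 sGC females. ADCY5, the main adenylyl cyclase of the striatum, measured 514, 246, 310 and 411 CPM in the controls and 155, 209, 142 and 184 CPM in sGC females. Every control lay above every sGC animal, the log2 fold change was -1.10 ± 0.22 (FDR = 0.0150), and all 8 fits with 1 animal left out passed. GNAL, the alpha subunit of the olfactory-type G protein, fell from 362 ± 163 to 145 ± 27.1 CPM (mean ± SD, n = 4 per group; log2 fold change -1.32 ± 0.30, FDR = 0.0213), also without overlap. RGS9, which speeds the shut-off of G protein signals, fell from 110 ± 52.1 to 36.7 ± 11.1 CPM (-1.58 ± 0.36, FDR = 0.0219). Of the phosphodiesterases, PDE10A, the striatal enzyme that degrades cyclic AMP and cyclic GMP, fell from 147 ± 71.9 to 63.7 ± 16.0 CPM (-1.21 ± 0.34, FDR = 0.0417) and the calcium-dependent PDE1B fell from 482 ± 182 to 244 ± 22.1 CPM (-0.98 ± 0.24, FDR = 0.0287). PDE7B, specific for cyclic AMP, measured 94.3 ± 37.9 and 56.1 ± 16.4 CPM and did not pass (-0.75 ± 0.31, FDR = 0.126). PDE10A passed in 1 and PDE1B in 2 of the 8 fits with an animal left out, whereas RGS9 and GNAL each passed in 5.

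Of 8 other signalling members 2 fell in F1 sGC females. CHN2, or beta-chimaerin, which switches off the GTPase Rac, had the smallest p in F1 females among members not listed for their F1 change. It measured 68.2, 73.6, 59.2 and 63.7 CPM in the controls and 27.7, 31.8, 20.4 and 35.7 CPM in sGC animals. Its 4 controls were close together and all above the sGC animals (log2 fold change -1.20 ± 0.16, FDR = 0.00403), and it passed in all 8 fits with an animal left out. PTPN5, the striatal-enriched tyrosine phosphatase STEP, fell from 522 ± 139 to 341 ± 18.6 CPM (-0.62 ± 0.17, FDR = 0.0388), and it passed in 1 of those 8 fits. RASGRP2, an activator of Rap, measured 28.1 and 16.96 CPM (-0.73, FDR = 0.0694), and DGKB, a diacylglycerol kinase, 186 and 110 CPM (-0.75, FDR = 0.149). RGS14, a regulator of G protein signalling, measured 97.7 and 70.7 CPM (-0.47, FDR = 0.0902), the calcium sensor HPCA 752 and 568 CPM (-0.40, FDR = 0.149), and ADCYAP1R1, the receptor of the peptide PACAP, 163 and 136 CPM (-0.27, FDR = 0.0950). The orphan receptor GPR149 measured 11.1 and 7.77 CPM (-0.52, FDR = 0.272).

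Of 7 transcription factors of the striatal lineage 5 fell in F1 sGC females. SIX3, a factor of indirect-pathway neurons, measured 31.3, 6.09, 6.82 and 40.4 CPM in the controls and 0.195, 0.207, 0.554 and 5.11 CPM in sGC females. The groups did not overlap, but sGC female 4 stood near controls 2 and 3 and the other sGC animals rested on few reads, the lowest library holding 3 (log2 fold change -3.82 ± 0.99, FDR = 0.0332). RARB, a retinoic acid receptor, measured 46.4, 36.0, 42.1 and 52.0 CPM in the controls and 27.1, 22.1, 26.2 and 28.4 CPM in sGC females, a narrow range within each group with no overlap (-0.77 ± 0.12, FDR = 0.00690), and it passed in all 8 fits with an animal left out. DLX5, a homeobox factor of GABAergic neurons, fell from 9.86 ± 3.73 to 3.16 ± 1.41 CPM (-1.64 ± 0.35, FDR = 0.0183), EBF1, a factor of direct-pathway neurons, from 7.85 ± 1.81 to 3.76 ± 0.84 CPM (-1.06 ± 0.22, FDR = 0.0166), and MEIS2, a homeobox factor of the developing striatum, from 114 ± 25.6 to 81.1 ± 7.62 CPM (-0.49 ± 0.14, FDR = 0.0492). All 3 were without overlap, and with an animal left out DLX5 and EBF1 passed in 7 of 8 fits, SIX3 in 3 and MEIS2 in 1. FOXP1, a forkhead factor of striatal neurons, measured 65.3 and 55.4 CPM (-0.24, FDR = 0.443). RXRG, the retinoid X receptor gamma, measured 56.3 and 38.2 CPM (-0.56 ± 0.63, FDR = 0.556), and 1 animal, sGC female 3, lay at 2.84 CPM while the other sGC animals lay between 37.5 and 72.1 CPM.

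Of the remaining 7 members 1 fell in F1 sGC females. SYNDIG1L, a membrane protein enriched in the caudate and putamen, measured 369, 41.4, 69.0 and 383 CPM in the controls and 5.01, 7.03, 9.001 and 54.5 CPM in sGC animals. As for ADORA2A, controls 1 and 4 were highest and sGC female 4 lay above control 2 (log2 fold change -3.52 ± 0.98, FDR = 0.0417), and it passed in 2 of 8 fits with an animal left out. SLC35D3, a transporter-like protein involved in dopamine D1 receptor trafficking, measured 27.8, 1.04, 2.94 and 32.99 CPM in the controls and 0.326, 0.138, 0.762 and 5.04 CPM in sGC animals, which overlapped, and did not pass (-3.38 ± 1.20, FDR = 0.0842). The kinase DCLK3 measured 12.9 and 8.90 CPM (-0.55, FDR = 0.440), the muscle and synaptic actin crosslinker ACTN2 104 and 89.6 CPM (-0.21, FDR = 0.285), and the anoctamin ANO3 407 and 367 CPM (-0.15, FDR = 0.770). The formin INF2, which nucleates actin filaments, measured 164 and 160 CPM (-0.03, FDR = 0.824), and SH3RF2 measured 2.33 and 1.61 CPM (-0.53, FDR = 0.276).

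The 4 genes listed for their F1 change are described without a test. GNG7, the gamma subunit partner of the olfactory-type G protein, measured 1332, 670, 720 and 940 CPM in F1 female controls and 264, 224, 352 and 389 CPM in sGC females (log2 fold change -1.58 ± 0.25). STRIP2, a striatin-interacting protein, had mean levels of 84.6 and 38.8 CPM (-1.12 ± 0.14), the zinc finger repressor ZNF503 8.92 and 2.55 CPM (-1.81 ± 0.27), and EXPH5, an effector of the vesicle GTPase RAB27, 6.06 and 2.10 CPM (-1.53 ± 0.26). In F1 males GNG7 measured 217 ± 33.5 CPM in the controls and 312 ± 34.9 CPM in sGC males (0.52 ± 0.10), and the log2 fold changes of ZNF503, STRIP2 and EXPH5 were 0.31, 0.24 and -0.48.

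**Figure D4:**
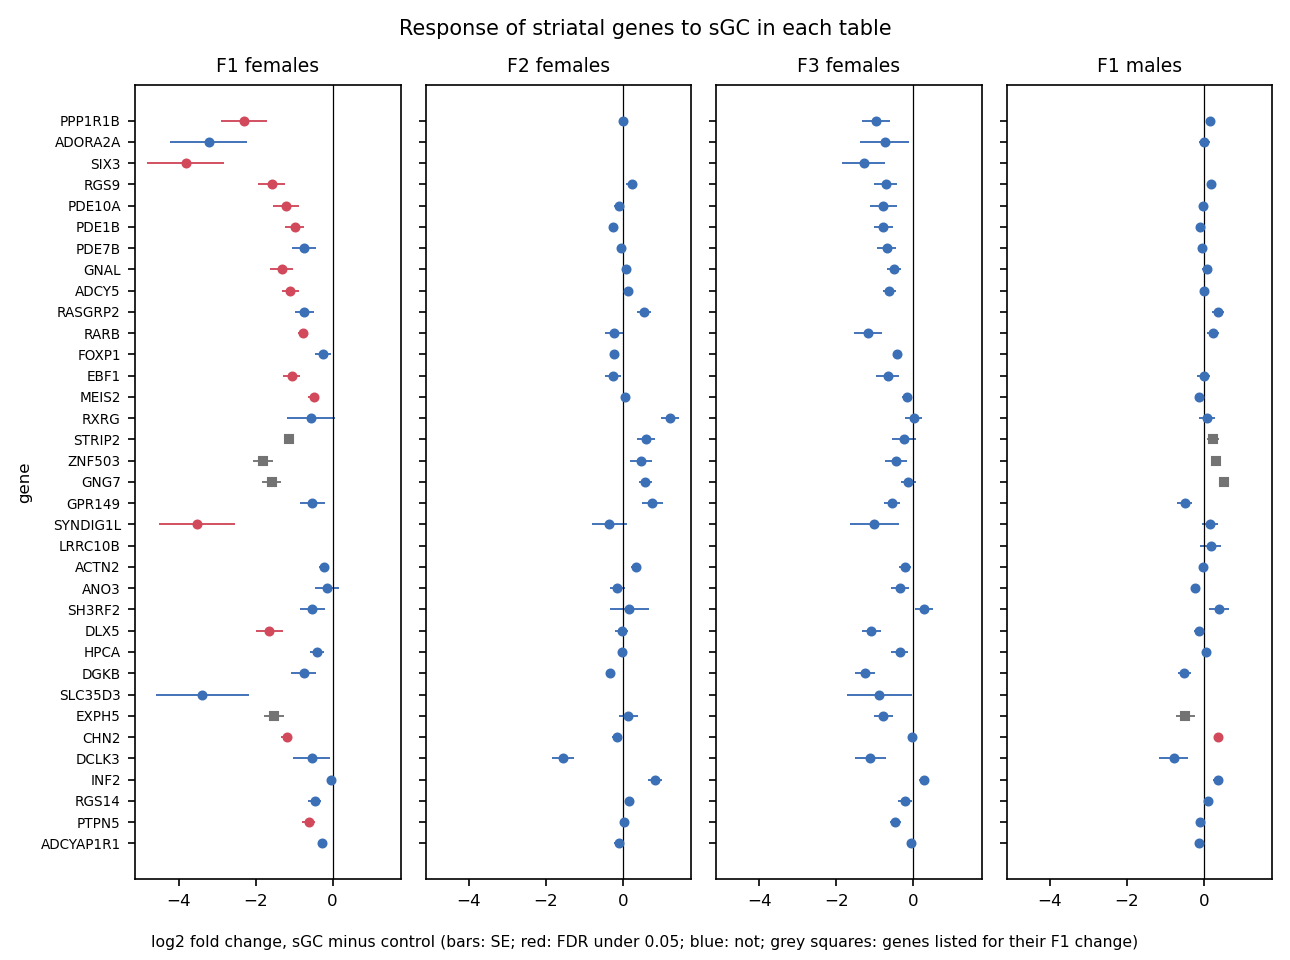
Log2 fold change, sGC minus control, of each tested member in the 4 tables, with bars for the SE, red points for members called by edgeR's quasi-likelihood test, blue points for the others and grey squares for the 4 genes listed for their F1 change. In F1 females all points lie left of 0 and 14 are red, in F3 females 30 of 33 lie left of 0 with 0 red, and in F2 females and F1 males the points lie on both sides, with 0 and 1 red.

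The F2 female comparison asked the same of the next generation in the paternal line. In edgeR's quasi-likelihood test 0 of 31 members passed, against a background of 0.278% of all genes. The median log2 fold change was 0.02, and 14 of 31 were negative. DCLK3 measured 8.76, 13.5, 18.6 and 14.7 CPM in the controls and 4.18, 7.84, 3.89 and 3.02 CPM in sGC females (-1.56 ± 0.29, FDR = 0.0506), RXRG 11.8, 18.4, 9.79 and 14.1 CPM against 41.2, 19.5, 35.3 and 30.2 CPM (1.22 ± 0.23, FDR = 0.0506), and INF2 104, 85.0, 73.0 and 74.4 CPM against 156, 99.7, 199 and 141 CPM (0.83 ± 0.18, FDR = 0.0585). DCLK3 was low and RXRG high in every sGC animal, INF2 overlapped through sGC female 2, and over the list 2 members lay wholly below and 1 wholly above the controls, against 4.02% and 4.08% of all genes. Those 3 members each passed in 2 of 8 fits with an animal left out. The likelihood ratio test and DESeq2 each called 5 members, 2 lower and 3 higher, against 4.80% and 4.25% of all genes, and leaving out control 1 or sGC female 2 gave 3 and 6, against 2.19% and 4.36%.

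The second member below all controls was DGKB, at 109 ± 8.99 CPM in the controls and 86.3 ± 6.42 CPM in sGC animals (-0.34 ± 0.08, FDR = 0.0642). GNG7 measured 207 and 310 CPM (0.58, FDR = 0.128), STRIP2 18.7 and 28.2 CPM (0.59, FDR = 0.249), ZNF503 1.15 and 1.59 CPM (0.47, FDR = 0.443) and EXPH5 1.26 and 1.37 CPM (0.14, FDR = 0.83), so that the genes picked for their F1 change had positive log2 fold changes here without passing. GPR149 measured 1.87 and 3.16 CPM (0.76, FDR = 0.210), RASGRP2 9.56 and 14.0 CPM (0.55, FDR = 0.179) and ACTN2 63.0 and 79.3 CPM (0.33, FDR = 0.233). SYNDIG1L, so wide in F1 females, lay between 1.92 and 10.7 CPM in all 8 F2 females (-0.35, FDR = 0.756). The remaining 18 members besides PPP1R1B had log2 fold changes between -0.26 (EBF1) and 0.23 (RGS9).

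In F3 females most members had negative log2 fold changes, with overlap between animals. In edgeR's quasi-likelihood test 0 of 33 members passed, against 1.34% of all genes (0.271% lower and 1.07% higher). The median log2 fold change was -0.56, against -0.01 over all genes, and 30 of 33 were negative, against 51.8%. For 4 members every sGC animal lay below every control, against 4.35% of all genes, and for 0 members every sGC animal lay above, against 5.95%. DGKB measured 89.2, 206, 226 and 167 CPM in the controls and 69.9, 79.2, 54.4 and 84.7 CPM in sGC animals (-1.26 ± 0.26, FDR = 0.0518), DLX5 5.41, 8.58, 10.2 and 6.55 CPM against 5.09, 3.13, 3.19 and 2.85 CPM (-1.10 ± 0.24, FDR = 0.0636), and ADCY5 226, 261, 345 and 258 CPM against 167, 210, 129 and 199 CPM (-0.63 ± 0.16, FDR = 0.0941). Control 1 was the lowest control for each, only slightly above the sGC animals, and without it all 3 passed and 9 of 33 members were called, all lower, while the share of all genes called went from 1.34% to 5.22%. The likelihood ratio test called 7 and DESeq2 8 members, all lower, against 5.39% and 5.53% of all genes. Without control 3, which held most of the highest values, 0 were called, against 1.20% of all genes, and the median was -0.38.

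None of the other F3 members passed. In the cascade, log2 fold changes were -0.51 for GNAL (210 and 148 CPM), -0.72 for RGS9 (70.6 and 42.7 CPM), -0.78 for PDE10A (130 and 75.8 CPM), -0.78 for PDE1B (289 and 168 CPM) and -0.69 for PDE7B (61.7 and 38.1 CPM), with FDRs from 0.134 to 0.286. Among the transcription factors they were -1.29 for SIX3, -1.18 for RARB, -0.67 for EBF1, -0.42 for FOXP1, -0.18 for MEIS2 and 0.00 for RXRG. EXPH5, the fourth member below all controls, measured 2.78 and 1.62 CPM (-0.78, FDR = 0.151), and DCLK3 10.9 and 4.96 CPM (-1.12, FDR = 0.186). SYNDIG1L measured 45.9 and 22.4 CPM (-1.02, FDR = 0.460) and SLC35D3 3.32 and 1.74 CPM (-0.88, FDR = 0.648), with groups that overlapped for both. The positive values beside RXRG were those of INF2 (0.27) and SH3RF2 (0.28). CHN2, with the smallest p of the members counted in F1 females, measured 81.2 and 79.7 CPM (-0.03, FDR = 0.937). PTPN5 (-0.47), GPR149 (-0.56), ANO3 (-0.35), HPCA (-0.36), ZNF503 (-0.45), STRIP2 (-0.25), RGS14 (-0.22), ACTN2 (-0.22), GNG7 (-0.13) and ADCYAP1R1 (-0.07) complete the list. Set side by side, and without the 4 genes listed for their F1 change, F1 and F3 females shared 29 tested members, 26 of them negative in both and 22 with the lower log2 fold change in F1.

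The F1 male comparison asked about directly exposed sons. Of 28 members counted, 1 rose and 0 fell in edgeR's quasi-likelihood test, against 5.74% of all genes that rose and 3.48% that fell (9.22% in either direction). The median log2 fold change was 0.01, 13 of 28 were negative, and none of the 28 had groups free of overlap, against 4.22% of all genes higher and 2.04% lower. The member that rose was CHN2, with 27.3, 23.9, 28.7, 25.4 and 33.6 CPM in the controls and a lowest, median and highest value of 28.5, 36.4 and 42.1 CPM in sGC males (0.36 ± 0.10, FDR = 0.0463). Control 5 lay above sGC males 2 and 3. CHN2 passed in 3 of 11 fits with an animal left out. Without control 1, 2, 3 or 4 or without sGC male 1, 4 or 5, 0 members were called. In those fits 5.80% to 8.15% of all genes were called. DGKB measured 76.2, 80.6, 113, 88.9 and 76.6 CPM in the controls and 48.9, 56.1 and 96.7 CPM (lowest, median, highest) in sGC males (-0.51 ± 0.16, FDR = 0.0692). INF2 measured 153, 165, 106, 118 and 177 CPM in the controls and 148, 194 and 217 CPM in sGC males (0.37 ± 0.13, FDR = 0.106). DGKB was low in every sGC male but sGC male 6. Without that animal 3 members were called, 2 lower and 1 higher, against 14.0% of all genes. LRRC10B, tested in males only, measured 0.357 and 0.407 CPM on 7 to 17 reads per library (0.18, FDR = 0.742).

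Of the remaining male members none passed. In the cascade the log2 fold changes were 0.01 for ADCY5 (138 and 139 CPM), 0.08 for GNAL (115 and 121 CPM), 0.18 for RGS9 (25.6 and 29.1 CPM), -0.01 for PDE10A (45.9 and 45.4 CPM), -0.10 for PDE1B and -0.06 for PDE7B. RASGRP2 (0.36), SH3RF2 (0.39) and GPR149 (-0.50) were the largest among those not yet named other than DCLK3, which measured 9.69 and 5.61 CPM (-0.79, FDR = 0.219). The lineage factors RARB (0.24), EBF1 (-0.01), MEIS2 (-0.12), RXRG (0.08) and DLX5 (-0.13) did not pass, nor did ANO3 (-0.23), SYNDIG1L (0.16), PTPN5 (-0.11), ADCYAP1R1 (-0.13), RGS14 (0.09), HPCA (0.06) and ACTN2 (-0.03).

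The differences between these responses were tested as interactions over the animals of both tables, for members present in both. Between F1 and F2 females the response differed for 9 of 27 members, all less negative or positive in F2, against a background of 6.75% of genes in that direction and 13.8% in either. They were PPP1R1B (interaction 2.30 ± 0.64, FDR = 0.0289), RGS9 (1.81), GNAL (1.396), ADCY5 (1.22), RASGRP2 (1.28), DLX5 (1.61), CHN2 (1.03 ± 0.22, FDR = 0.00951), INF2 (0.85) and PTPN5 (0.64). Between F1 females and F1 males it differed for 15 of 27 members, all less negative or positive in males, against 16.0% of genes in that direction and 31.7% in either. CHN2 had the smallest p (1.55 ± 0.19, FDR = 2.54e-05), and PPP1R1B (2.45 ± 0.56, FDR = 0.00317), ADORA2A (3.23 ± 0.98, FDR = 0.0176), ADCY5 (1.11 ± 0.21, FDR = 0.000768) and RARB (1.00 ± 0.20, FDR = 0.00126) were among them. Both interactions use the same 8 F1 females. When single animals were left out, the first count in edgeR's quasi-likelihood test lay between 5, without F2 control 3, and 12, without F1 control 2. The shares of all genes called in either direction were 7.23% and 9.39% in those 2 fits. The spread of each gene was estimated once over both tables, although it differed between them. PPP1R1B measured 781 ± 524 CPM (mean ± SD) in F1 female controls and 21.5 ± 2.75 CPM in F1 male controls. The FDRs of the interactions do not allow for such unequal spread.

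Levels in the control animals alone also differed between the tables. Without the 4 genes listed for their F1 change, 21 of 27 members listed in both had all 4 F1 female controls above all 4 F2 female controls in CPM without TMM scaling, against 15.5% of all genes listed in both, and the median ratio of the control means was 2.52 for the members and 1.03 for all genes. Between F3 and F2 controls 17 of 30 members were wholly higher in F3, against 41.3% of all genes, with median ratios of 1.93 and 1.13. Between F1 and F3 controls, with the same genes left out, 7 of 29 were wholly higher in F1, against 15.1%, with median ratios of 1.55 and 0.91. The generations were counted in separate tables, so generation and table cannot be told apart in these values.

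Likeness to PPP1R1B was also measured over all 35 animals, after the mean of its own group and table had been taken from each animal's log2 CPM. Over 10724 genes present in all tables, 13 of 28 members were among the 100 genes most like PPP1R1B, and the median residual r was 0.63 for the members and -0.01 for all genes. The 28 include GNG7, STRIP2, ZNF503 and EXPH5, which were listed for their F1 change, and GNG7, at rank 94, is 1 of the 13. Both F1 tables enter these values. PDE7B (0.90), PDE10A (0.88) and SYNDIG1L (0.85) ranked highest, and RXRG (-0.16), ADCYAP1R1 (-0.12), CHN2 (-0.03) and INF2 (0.07) lowest. Outside the list the 10 most alike were Lpl (0.93), RASD2 (0.92), TPD52L1 (0.87), SMPD3 (0.87), KCTD8 (0.86), EPB41 (0.84), DNAH7 (0.83), Htr4 (0.82), ANKRD63 (0.82) and REM2 (0.81). Without the F1 females, over 27 animals, the members' median was 0.59, Lpl kept a residual r of 0.91 and RASD2 of 0.83. The other genes named outside the list then ran from 0.54 (REM2) and 0.59 (DNAH7) to 0.85 (ANKRD63). These residual correlations share libraries and are given as a description.

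A separate list of 24 other genes known from the striatum was followed for the pathway's receptors, peptides and substrates. In F1 females 9 of 22 fell and 1 rose, against 7.33% and 9.21% of all genes, and the median log2 fold change was -0.9994. The neuropeptide precursors PENK of the indirect pathway (298 ± 174 to 57.7 ± 32.4 CPM, log2 fold change -2.37, FDR = 0.0230) and TAC1 of the direct pathway (105 ± 43.8 to 36.6 ± 7.06 CPM, -1.52, FDR = 0.0142) fell without overlap. PDYN, another precursor of the direct pathway (-1.60, FDR = 0.0309), ARPP21, a cyclic AMP-regulated phosphoprotein (-0.81, FDR = 0.0453), and the calcium buffer CALB1 (-1.59, FDR = 0.0246) also fell. PDYN, ARPP21, CALB1 and GPR52 had been singled out by the study on these same animals, so they are not independent of it. RASD2 (-1.95, FDR = 0.0443), RGS8 (-1.12, FDR = 0.0218), DRD3 (-1.33, FDR = 0.0287) and NTS (-3.24, FDR = 0.00721) completed those that fell, and GPR155 rose (0.44, FDR = 0.0160).

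The dopamine receptors also varied between libraries and tables. DRD2, the receptor of indirect-pathway neurons, lay between 13.4 and 179 CPM in F1 female controls and between 0.911 and 24.3 CPM in sGC females (-3.68 ± 1.14, FDR = 0.0566), did not pass the filter in F2 females at 3 to 61 reads per library, and had mean levels of 10.3 and 8.85 CPM in F3 females and 0.363 and 0.361 CPM in F1 males. DRD1, the receptor of direct-pathway neurons, measured 88.1 ± 31.2 and 52.3 ± 10.1 CPM in F1 females (-0.75, FDR = 0.0596). In F2 females DRD1 was the only gene of this list that passed, and it rose from 19.9 ± 2.26 to 38.8 ± 9.38 CPM without overlap (0.96 ± 0.16, FDR = 0.0443), against 0.153% of all genes that rose. In F3 females 3 of 22 fell, GPR52 (-2.31, FDR = 0.0466), the opioid receptor OPRM1 (-0.97, FDR = 0.0351) and the cannabinoid receptor CNR1 (-0.56, FDR = 0.0368), against 0.271% of all genes, and in F1 males 2 of 21 fell, ARPP21 (-0.34, FDR = 0.00665) and CNR1 (-0.51, FDR = 0.0314), against 3.48%.

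The general machinery of the cascade, which is not restricted to the striatum, held calls in both directions. Of 20 genes for protein kinase A, protein phosphatase 1, calcineurin, CDK5 and G protein subunits, 16 were tested in F1 females, 1 fell and 3 rose, against 7.33% and 9.21% of all genes, and the median log2 fold change was 0.07. PPP1R1A, inhibitor 1 and a relative of DARPP-32, fell from 300 ± 82.4 to 170 ± 13.3 CPM (-0.82, FDR = 0.020), while the kinase subunit PRKAR1B (0.43, FDR = 0.00590), the calcineurin subunit PPP3CB (0.48, FDR = 0.00535) and GNAS (0.32, FDR = 0.0226), the stimulatory G protein that serves most cells in place of GNAL, rose. In F2 females 0 of 16 passed. In F3 females 1 of 17 rose, which was again GNAS (0.33, FDR = 0.0470), against 1.07% of all genes, and in F1 males 3 of 16 fell, PRKACB (-0.24, FDR = 0.0189), PRKAR2B (-0.19, FDR = 0.0366) and CDK5R1 (-0.27, FDR = 0.0119), against 3.48%.

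Markers of other cell types also differed between F1 female libraries, where 7.33% of all genes fell and 9.21% rose. Of 8 markers of cortical excitatory neurons 7 were tested, and 0 passed, with a median log2 fold change of 1.91 and a summed level of 2859 to 4933 CPM in the controls and 4086 to 8048 CPM in sGC females. SLC17A7 among them measured 989, 317, 171 and 240 CPM in the controls and 1313, 1234, 884 and 3575 CPM in sGC females. Controls 2, 3 and 4 were thus the lowest animals for SLC17A7, control 1 lay within the range of the sGC females while holding 19 of the highest values of the striatal list, and TBR1 was not listed. Microglial markers fell for 4 of 5 (234 to 283 CPM summed in controls, 175 to 197 CPM in sGC), astrocyte markers for 3 of 7 (6601 to 7520 against 6226 to 6875 CPM) and markers of GABAergic interneurons for 3 of 9, with the GABA synthesis enzyme GAD2 (-0.62, FDR = 0.00721) and the vesicular transporter SLC32A1 (-0.89, FDR = 0.0254), which medium spiny neurons also express, among them. Myelin markers passed in 0 of 6, at 4154 to 14200 CPM against 3293 to 6701 CPM. The part of these differences between libraries in the lower striatal levels was not tested.

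The other lists in F1 females held calls in both directions. Of upper-layer cortical markers 2 of 7 fell and 2 rose, and of deep-layer markers 1 of 10 rose. Of endothelial markers 1 of 6 fell, and of ependymal and choroid markers 1 of 3 fell. Of septal markers 1 of 4 fell and 1 rose, and of 5 markers of oligodendrocyte precursors and 4 of the paraventricular nucleus 0 passed. The septal marker that fell was DRD3, and CALB1 was among the upper-layer markers that fell. Both were already counted in the list of other striatal genes. Markers of striatal cholinergic interneurons, such as CHAT and LHX8, were not listed in F1 females, and SLC5A7 was the only one tested anywhere, at 0.176 to 3.07 CPM in F3 females. In F2 females 1 upper-layer marker fell, 1 deep-layer marker rose and 0 of 6 myelin markers passed at a median log2 fold change of 1.11, and in F3 females 1 interneuron marker, PVALB, rose. The F3 cortical excitatory markers summed to 2618 to 2901 CPM in the controls and 3211 to 3526 CPM in sGC animals without overlap, although 0 of 7 passed singly. In F1 males, where the striatal list was level, all 6 myelin markers rose with a median log2 fold change of 0.95, as did 3 of 5 markers of oligodendrocyte precursors and 1 of 7 of astrocytes, and 2 upper-layer and 2 interneuron markers fell.

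**Figure D5:**
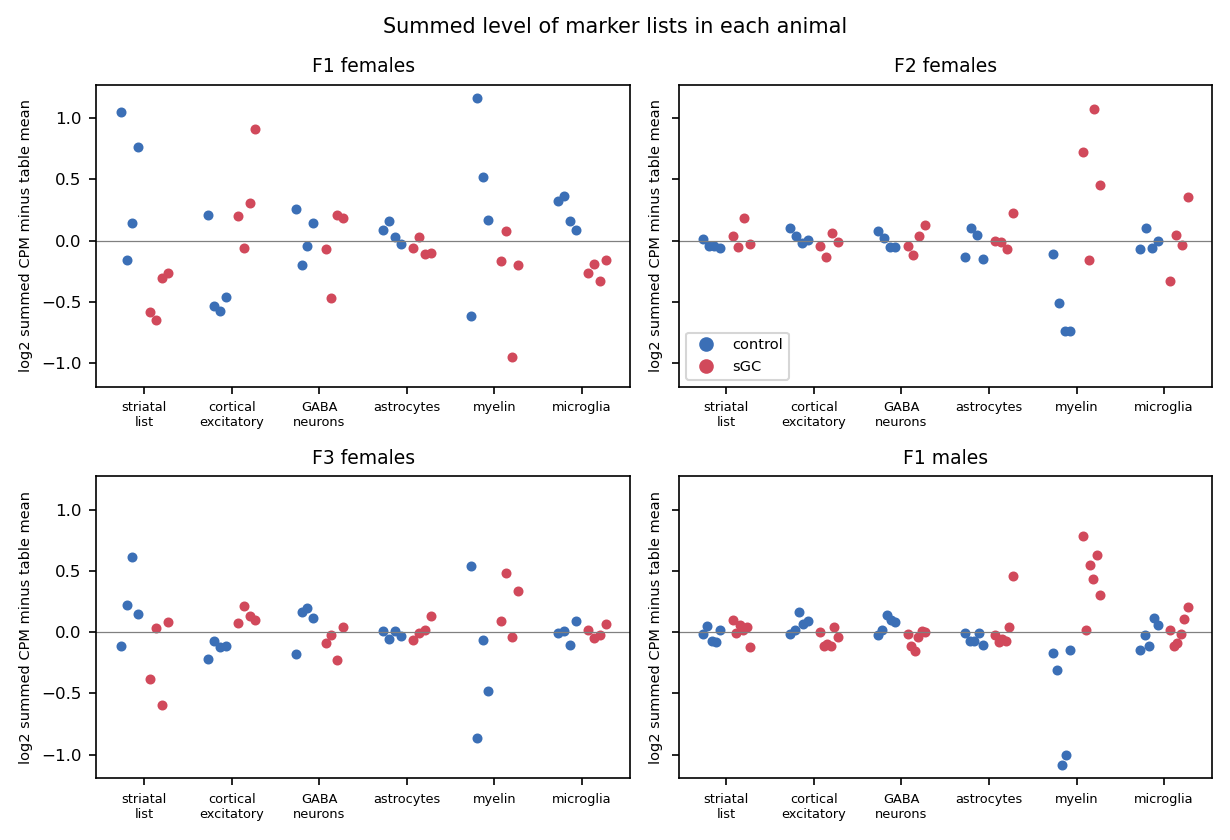
Log2 of the summed CPM of 6 marker lists in each animal, minus the mean of that list over the animals of the table, with controls in blue and sGC animals in red. The striatal sum covers all tested members, 34 in F1 females, and so includes GNG7, STRIP2, ZNF503 and EXPH5, which were listed for their F1 change. In F1 females the striatal list is highest in controls 1 and 4 and the cortical excitatory list is lowest in controls 2, 3 and 4, and in F1 males the striatal list stays near 0 while the myelin list is higher in sGC animals.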

How the data were processed

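RNA from 35 animals had been sequenced with 1 library each. The authors deposited 4 tables of raw counts, in whole reads per gene, for F1, F2 and F3 females and F1 males. The submitters' processing notes name TopHat2 and edgeR, and the counter, genome build and filter are not given in the sources used here. The tables also hold the authors' own dispersions, fold changes, test statistics and p-values, which were not used. All 39 symbols matched a RefSeq gene name (assembly mCavPor4.1), which was used for names only.

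The software was edgeR 4.0.16, DESeq2 1.42.0 and limma 3.58.1 under R 4.3.3. Genes with low counts were removed by filterByExpr (minimum count 10, total 15), and the rest were normalized by TMM and compared within each table by the quasi-likelihood test. Interactions were fitted over the animals of both tables, with 1 mean per group and 1 estimate of spread per gene. P-values were adjusted by Benjamini-Hochberg over all 11132 to 11524 genes tested, and an FDR under 0.05 was called. The likelihood ratio test named by the study was an alternative. Log2 CPM used a prior count of 1, and permutation tests over 11 animals used 100000 resamples. Library totals ran from 12819964 to 31763585 reads, which limits genes with few reads. Replicates differed by more than sampling noise (lowest chi-square per degree of freedom 2.84). The study used 1 animal per litter among females and does not state this for males.

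Members, marker lists and tests were chosen with earlier results of these data known. All members are named by role, with values per animal for PPP1R1B, ADORA2A and the 3 members of smallest p in each table. In the F1 tables those 3 leave out the genes listed for their F1 change. Values per animal are also given for others chosen after their values were seen. Outside the list, the 10 genes most like PPP1R1B and members of 15 marker lists are named. Methods were tested on simulated data.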

Additional observations from a re-analysis of the deposited data

Results flagged for a closer look

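In 78 groups of 4 to 6 animals, over 10 genes, 5 held an animal that stood apart from its group by Dixon's criterion, and chance flags about 1 in 20 groups. ADORA2A was high in F1 sGC female 4, at 64.2 CPM against 5.99 to 10.5 CPM in the others. DLX5 was high in F3 sGC female 1, at 5.09 CPM against 2.85 to 3.19 CPM. ADORA2A was high in F1 control male 3, at 4.35 CPM against 3.21 to 3.43 CPM, and DCLK3 was high in the same animal, at 23.0 CPM against 4.80 to 9.24 CPM. DGKB was high in F1 sGC male 6, at 96.7 CPM against 48.9 to 59.0 CPM.

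The response to sGC differed between F1 and F2 females in edgeR's interaction test (FDR under 0.05, second minus first on the log2 scale) for PPP1R1B (2.30), RGS9 (1.81), DLX5 (1.61), GNAL (1.396), RASGRP2 (1.28), ADCY5 (1.22), CHN2 (1.03), INF2 (0.85) and PTPN5 (0.64). It differed between F1 females and F1 males for SYNDIG1L (3.68), ADORA2A (3.23), PPP1R1B (2.45), RGS9 (1.76), CHN2 (1.55), DLX5 (1.52), GNAL (1.395), PDE10A (1.20), ADCY5 (1.11), RASGRP2 (1.09), EBF1 (1.05), RARB (1.00), PDE1B (0.88), RGS14 (0.55) and PTPN5 (0.50). All of these were higher in the second table, the F1 females enter both comparisons, and each pair of tables was counted separately.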

How the results depend on the processing

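In F1 females 13 to 17 members were called under another test, scaling or filter, 3 to 17 when 1 animal was left out, and 4 without controls 1 and 4. Over all genes the shares called were 16.0% to 21.5%, 5.42% to 18.7% and 15.1% in the same order. In F2 females, with 0 called in the fit reported, the likelihood ratio test and DESeq2 each called 5, upper-quartile scaling and no filter each 2, and fits without 1 animal 0 to 6. The shares of all genes were 4.80%, 4.25%, 0.629%, 0.669% and 0.00% to 4.36%. In F3 females, also with 0, the likelihood ratio test called 7, DESeq2 8, upper-quartile scaling 1, and fits without 1 animal 0 to 9. There the shares of all genes were 5.39%, 5.53%, 1.17% and 0.175% to 5.22%. In F1 males, with 1, the likelihood ratio test called 2, DESeq2 3, and fits without 1 animal 0 to 3. For the males the shares of all genes were 12.2%, 13.8% and 5.80% to 14.0%. The interaction of F1 with F2 females had 5 to 12 members without 1 animal, and that with F1 males 13 to 17. Over all genes 7.23% to 17.1% and 26.7% to 32.1% were called in those fits. The F2 log2 fold change of PPP1R1B turned from 0.00 to -0.0021 with DESeq2 and with RLE scaling, to -0.0037 without a filter, and lay between -0.074 and 0.088 without 1 animal, and that of ADORA2A in F1 males lay between -0.084 and 0.10. The cause of these changes was not tested.

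The deviations of same-numbered animals had correlations from -0.33 to 0.33 in F1 females, -0.29 to 0.12 in F2, -0.09 to 0.13 in F3 and -0.15 to 0.11 in F1 males. With 4 pairs in each female table and 5 in F1 males, these values cannot exclude that the numbers pair the animals. With the replicate block 14 members were called in F1 females, against 9.58% of all genes. PDE10A (FDR 0.0735) and PTPN5 (FDR 0.0502) were no longer among them, and ADORA2A (FDR 0.0288) was among those added. The block called 1 member in F2 (PPP1R1B -0.0060), 0 in F3 and 2 in F1 males (ADORA2A -0.086). The shares of all genes in those 3 tables were 0.476%, 0.587% and 8.67%.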
